A study of Mus musculus with 34 samples.

Results

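The comparison described here sets somatostatin (SST) interneurons labelled as lacking Nr4a1 against SST interneurons without that deletion, all from mice left in their home cage. The series asked which genes change in PV and SST interneurons with learning or with evoked excitation, and profiled the same cells without Nr4a1. The comparison takes 6 of the 34 libraries of the series, 3 in each group, chosen by their titles alone. The Nr4a1 cKO libraries (n = 3) came from Sst:Cre/Nr4a1-f/f/Ribotag mice and were sequenced as batch 5. The home cage libraries (n = 3) came from Sst:Cre/Ribotag mice and were sequenced as batch 4. Both groups were C57/BL6 mice at postnatal day 60, and both carried Sst:Cre and the RiboTag allele, so the floxed Nr4a1 alleles are the difference in genotype that the labels give. Batch and genotype coincide, and no term in any fit can separate them, so every difference below is one of genotype and batch together and the 2 cannot be told apart. The Cre recombinase is driven by Sst, so the deletion is set by that gene's activity, and the home cage mice had no floxed alleles. The tissue label names both cortex and hippocampus, whereas the protocol speaks of cortices. Whether the replicates are separate animals is not stated. The p-values therefore measure the spread between these libraries, which may be partly technical.

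Nr4a1 is an orphan nuclear receptor whose gene is switched on within minutes to hours by neuronal activity. It binds DNA as a monomer at an element called NBRE, or together with retinoid X receptors, and raises or lowers the transcription of nearby genes. SST interneurons release GABA onto the dendrites of excitatory neurons, and many of them also release neuropeptides. In RiboTag mice, Cre turns on an HA-tagged copy of the ribosomal protein Rpl22, and an antibody to HA then pulls down ribosomes with the mRNA bound to them. A level in such a library is a share of the ribosome-bound mRNA that was recovered, and fewer cells of a type and less RNA per cell cannot be told apart.

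The cKO libraries held 22249178, 23995396 and 24623907 counts, and the home cage libraries held 17655744, 16487693 and 20271874 counts. Replicates 2 and 3 of the cKO group were close to each other (chi-square per degree of freedom 6.18) and stood apart from replicate 1 (47.3 and 48.3), while pairs of home cage libraries gave 29.5 to 35.9. The summed level of 24 vascular and mural cell markers was 1728 CPM (counts scaled to the library total) in cKO replicate 1 and 75.7 and 77.3 CPM in the other cKO libraries, against 214, 961 and 572 CPM in home cage libraries. Y-linked genes had 2968, 0 and 0 counts in cKO libraries, against 0, 1837 and 2175 counts in home cage libraries, so the groups differ in their make-up by sex. Nuclear rRNA genes took 0.0532%, 0.034% and 0.0339% of the counts in cKO libraries, against 0.639%, 0.746% and 0.505% in home cage libraries.

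The first check concerned Nr4a1 itself. Nr4a1 had 14.2, 11.3 and 17.6 CPM in cKO libraries, against 23.8, 15.3 and 13.9 CPM in home cage libraries. The groups overlapped, and the difference was within the spread between replicates (log2 fold change -0.30 ± 0.22 SE, adjusted p = 0.511, edgeR quasi-likelihood test with Benjamini-Hochberg adjustment over all genes, as for every adjusted p below). Without home cage replicate 1 it was 0.01. The count covers the whole gene (chromosome 15, 101254269 to 101274795, plus strand, GENCODE release 21 on GRCm38), and the labels do not say which exons are deleted, so counts of the remaining exons are included and this level does not check the genotype. None of the 6 Nr4a receptors and retinoid X receptor partners passed the test, and their median log2 fold change was -0.15. In the contextual fear conditioning (CFC) libraries of batch 4, from Sst:Cre/Ribotag mice that were given foot shocks, Nr4a1 averaged 95.7 CPM, and cKO libraries were lower than those by 2.74 on the log2 scale (log2 fold change -2.74, adjusted p = 0.000195). That comparison is between a home cage group and a CFC one and uses the same cKO libraries.

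The markers of the labelled cell type were present. All 12 SST interneuron markers were detected in every group, with a summed level of 9919 to 11574 CPM in cKO libraries and 13220 to 14573 CPM in home cage libraries. Sst, the peptide that defines these cells, had 3063, 2958 and 3402 CPM in cKO libraries, against 5980, 5521 and 5904 CPM in home cage libraries. The groups did not overlap, and Sst fell by 0.89 on the log2 scale (log2 fold change -0.89 ± 0.07 SE, adjusted p = 0.000307). With an offset that removes the dependence of each library on gene length and GC content, the log2 fold change of Sst was -0.21 and no longer passed (adjusted p = 0.159). The other 11 markers did not pass the test. They include Gad1 and Gad2, the enzymes of GABA synthesis (log2 fold change 0.08 and 0.12), the transcription factors Lhx6 (0.05), Sox6 (0.24) and Satb1 (0.24), and the synaptic protein Elfn1 (0.09). Npy, the neuropeptide Y gene, had a log2 fold change of -0.30 (adjusted p = 0.0839). Pvalb, the calcium buffer that marks parvalbumin (PV) interneurons, had 192, 137 and 89.9 CPM in cKO libraries, against 486, 190 and 88.1 CPM in home cage libraries, and these ranges overlapped.

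Of 15453 genes tested, 1252 passed an adjusted p of 0.05, which is 8.1%. The called genes were 543 higher (3.51%) and 709 lower (4.59%) in cKO libraries, and 177 of them differed by more than 2-fold, 72 higher and 105 lower. Higher genes were 43.4% of those called, 53.9% when libraries were scaled by their totals alone and 56.8% when low counts were not filtered out. They were 28.9% without cKO replicate 2, 27.4% without cKO replicate 3 and 35.6% with an offset for gene length and GC content. Without cKO replicate 2 the calls numbered 426, without cKO replicate 3 they numbered 412, and without home cage replicate 1 they numbered 806. Without cKO replicate 1, the library that stood apart, there were 1292. The length and GC offset left 531 calls, and a test against a 2-fold difference left 12.

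The gene with the largest rise among the named genes was Tuba1c, an alpha tubulin of microtubules. It had 56.9, 64.4 and 61.4 CPM in cKO libraries, against 0.468, 1.96 and 1.14 CPM in home cage libraries. There was no overlap (log2 fold change 5.67 ± 0.41 SE, adjusted p = 0.000137). Its near-identical neighbours on chromosome 15, Tuba1a and Tuba1b, were lower in cKO libraries, by 0.41 and 0.45 on the log2 scale (log2 fold changes -0.41 and -0.45, adjusted p = 0.0249 and 0.0418), and how reads were divided among these copies is uncertain. Slc7a11, the cystine importer that feeds glutathione synthesis, had 31.7, 33.9 and 31.6 CPM in cKO libraries, against 1.81, 6.19 and 1.88 CPM in home cage libraries (log2 fold change 3.30 ± 0.51 SE, adjusted p = 0.00383). Every cKO library was above every home cage library for this gene too. Wdfy1, a protein of endosome membranes, had 52.7, 22.6 and 48.0 CPM in cKO libraries, against 7.95, 8.39 and 11.2 CPM in home cage libraries (log2 fold change 2.16 ± 0.35 SE, adjusted p = 0.00531).

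For these 3 genes the level in other libraries with an intact Nr4a1 gene was also measured. Tuba1c averaged 0.61 CPM in the CFC libraries of batch 4. In the SST saline libraries of batch 2 (Sst:Cre/Ribotag mice given saline, n = 4), fitted together with batch 4, its log2 fold change over the home cage libraries was 3.93. Slc7a11 averaged 1.31 CPM in the CFC libraries, and its log2 fold change of saline over home cage libraries was 2.79. For Wdfy1 the CFC mean was 11.1 CPM and the saline over home cage value 2.97. So the home cage and CFC libraries of batch 4 were both low for these genes, and undeleted SST libraries of batch 2 were not. Between saline and home cage libraries 80.6% of the 11422 genes compared passed (39.2% higher, 41.4% lower). These 2 groups of libraries also differ in batch, in treatment and in how genes were listed, which was by symbol in batch 2. The part of each was not tested.

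**Figure D1:**
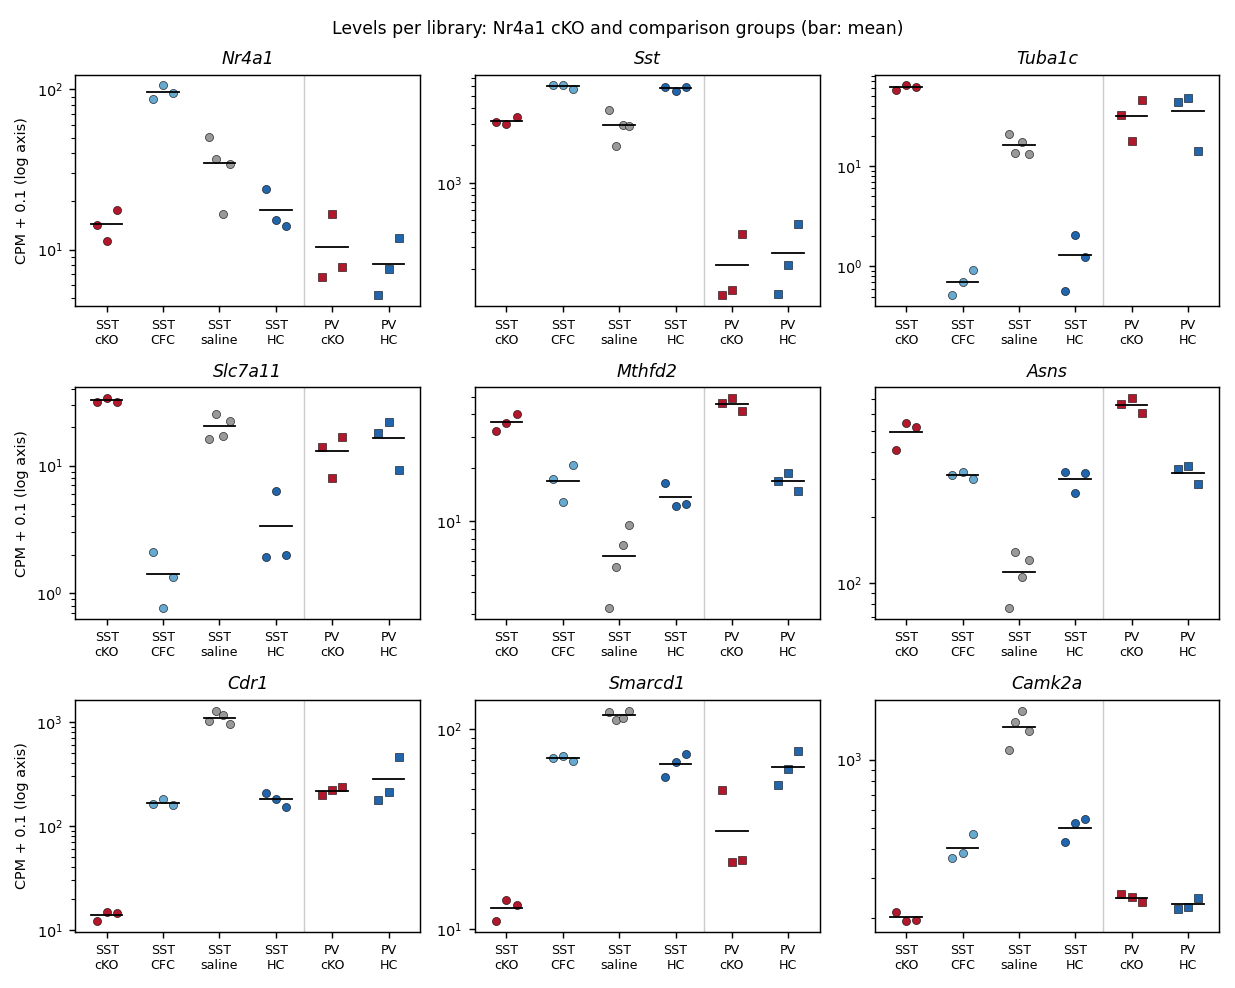
Levels of 9 genes in each library, as CPM plus 0.1 on a log axis. Circles are SST libraries and squares PV libraries, and the bar is the group mean. SST cKO libraries are batch 5, SST CFC and SST home cage (HC) libraries batch 4, SST saline libraries batch 2 and PV libraries batch 3; levels were scaled within each of 3 fits, so heights are best compared within SST cKO, CFC and HC, or within PV. Tuba1c and Slc7a11 are low in both groups of batch 4 and in no other group shown, while Cdr1 is low in the SST cKO libraries alone among the groups shown.

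Among the other genes of the 15 largest rises, Nab1, a corepressor of the Egr transcription factors, had 24.3, 14.3 and 15.5 CPM in cKO libraries, against 3.51, 5.71 and 5.45 CPM in home cage libraries (log2 fold change 1.88, adjusted p = 0.0112). Spire1, which nucleates actin filaments, had 84.1, 94.5 and 109 CPM in cKO libraries, against 20.6, 36.5 and 48.6 CPM in home cage libraries (log2 fold change 1.44, adjusted p = 0.0157). Neither gene showed any overlap between the groups. Rfwd2, also known as Cop1, a ubiquitin ligase, rose by 1.65 on the log2 scale and Fbxo45, of another ubiquitin ligase, by 1.41. Hectd2 had a log2 fold change of 1.42, and its call was lost when any 1 library was left out. Plekha3, a Golgi lipid-binding protein, rose by 1.61 on the log2 scale, and Gm45871, Fam78b, Ccser1, Ccdc71l, 1190002N15Rik and Zfp942 rose by 1.44 to 2.10. With the offset for length and GC content, Ccser1, Rfwd2, 1190002N15Rik, Zfp942, Hectd2 and Fbxo45 no longer passed.

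Cdr1 had the largest fall of any protein-coding gene among those named. It had 12.1, 14.9 and 14.5 CPM in cKO libraries, against 208, 183 and 152 CPM in home cage libraries. Each cKO library was more than 10 times below the lowest home cage library (log2 fold change -3.71 ± 0.14 SE, adjusted p = 1.08e-06). The Cdr1 locus also gives an antisense circular RNA, and since no source used here says how strand was counted, reads of both cannot be told apart. Smarcd1, a subunit of the SWI/SNF chromatin remodeller, had 10.8, 13.9 and 13.1 CPM in cKO libraries, against 57.3, 68.4 and 74.8 CPM in home cage libraries (log2 fold change -2.40 ± 0.14 SE, adjusted p = 3.81e-05). Tmem87a, a Golgi membrane protein, had 2.91, 2.00 and 2.64 CPM in cKO libraries, against 11.5, 14.6 and 17.1 CPM in home cage libraries (log2 fold change -2.52 ± 0.24 SE, adjusted p = 0.000389). These 3 genes passed under each of the 18 other settings tried, the test against a 2-fold difference included.

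Pla2g4e, a phospholipase A2, had 6.53, 9.86 and 7.88 CPM in cKO libraries, against 38.4, 27.9 and 31.9 CPM in home cage libraries (log2 fold change -2.02, adjusted p = 0.00124). Ddx23, a helicase of the spliceosome, had 1.35, 3.66 and 1.95 CPM in cKO libraries, against 11.6, 7.79 and 9.86 CPM in home cage libraries (log2 fold change -2.07, adjusted p = 0.0418). Neither overlapped, but the call of Ddx23 was lost when any 1 library was left out. Map1a, which binds microtubules in dendrites, had 104, 103 and 104 CPM in cKO libraries, against 386, 314 and 265 CPM in home cage libraries (log2 fold change -1.63 ± 0.12 SE, adjusted p = 0.000145). Map1a, Tuba1a, Tuba1b and several members of the ATF4 list below lay outside the rule for named genes and were picked after their values were seen. The remaining large falls were rRNA genes, such as CT010467.1 (log2 fold change -4.02) and n-R5-8s1, mitochondrial genes, and Agt, the angiotensinogen gene of astrocytes (-2.07).

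A group of genes of the ATF4 stress response rose in cKO libraries. ATF4 is a transcription factor that is translated more when cells are short of amino acids or under stress of the endoplasmic reticulum, and it switches on amino acid transporters, enzymes of serine, asparagine and proline synthesis and tRNA synthetases. Of 32 genes listed, 30 were tested, 8 were higher and 0 lower (26.7% called, beside 3.51% of all genes higher), and 28 of the 30 had a positive log2 fold change. The median was 0.45 for the list and 0.02 for all genes tested. The list kept a positive median under each of the 17 other settings that gave one, with 5 to 8 members higher; with the length and GC offset the median was 0.61, with 6 members higher. Against the CFC libraries, a comparison that shares the cKO libraries with the main one, 8 members were higher and 0 lower. There 8.46% of all genes passed, 3.11% higher and 5.35% lower. Between CFC and home cage libraries 0.0259% of genes passed, 0.0259% higher.

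Atf4 itself had 116, 145 and 142 CPM in cKO libraries, against 87.8, 75.9 and 74.9 CPM in home cage libraries (log2 fold change 0.76 ± 0.12 SE, adjusted p = 0.00452). Mthfd2, the mitochondrial one-carbon enzyme, had 32.1, 35.5 and 40.2 CPM in cKO libraries, against 16.2, 12.0 and 12.4 CPM in home cage libraries (log2 fold change 1.41 ± 0.21 SE, adjusted p = 0.00359). Asns, asparagine synthetase, had 408, 545 and 521 CPM in cKO libraries, against 322, 260 and 319 CPM in home cage libraries (log2 fold change 0.71 ± 0.12 SE, adjusted p = 0.00589). For all 3, each cKO library lay above each home cage library. Nars, asparaginyl-tRNA synthetase, had 692, 875 and 862 CPM in cKO libraries, against 462, 430 and 470 CPM in home cage libraries (log2 fold change 0.83 ± 0.09 SE, adjusted p = 0.00092). Psat1, of serine synthesis, had 42.9, 68.1 and 62.1 CPM in cKO libraries, against 26.8, 33.3 and 35.3 CPM in home cage libraries (log2 fold change 0.86 ± 0.19 SE, adjusted p = 0.0188). These groups did not overlap either. Slc7a3, a transporter of arginine and lysine, averaged 54.2 CPM in cKO libraries and 26.5 CPM in home cage libraries (log2 fold change 1.03, adjusted p = 0.0472), and Pycr1, of proline synthesis, averaged 7.47 CPM in cKO libraries and 2.87 CPM in home cage libraries (1.38, adjusted p = 0.0481). The calls of Slc7a3 and Pycr1 held under 9 and 6 of 18 other settings. Slc7a11, the eighth gene called, is described above. Undeleted SST libraries of batches 2 and 4 also differed in some of these genes. The log2 fold change of saline over home cage libraries was -1.27 for Asns, -0.96 for Mthfd2, 0.69 for Psat1 and 0.03 for Slc7a3. The part of batch in the list's difference was not tested.

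Members of the list that did not pass include the serine enzymes Phgdh (log2 fold change 0.98, adjusted p = 0.158) and Psph (0.73, adjusted p = 0.124), the glutathione-degrading enzyme Chac1 (0.35, adjusted p = 0.417) and the stress regulators Ddit3 (0.11), Trib3 (0.95) and Sesn2 (0.28). Among 20 cytosolic aminoacyl-tRNA synthetases, 3 were higher (Nars, Cars and Mars) and 2 lower (Hars and Qars), which is 25.0% called, beside 8.1% of all genes. Of 20 chaperones of the endoplasmic reticulum, 0 were higher and 2 were lower, Hyou1 (log2 fold change -0.84, adjusted p = 0.00214) and Manf (-0.59, adjusted p = 0.0159). The share called in this list was 10.0%, near the 8.1% of all genes, and its median was 0.02, as for all genes tested.

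Promoter sequence is shown for 3 of the called ATF4 genes because it holds the element that ATF4 and C/EBP partners are known to bind. Promoters of 300 bases (250 before to 50 after the start, RefSeq, GRCm38.p6) matched 11299 of the 15453 genes tested. TGATGNAA was searched on both strands and was present in 8 of 24 ATF4 list promoters (33.3%), in 3 of the 6 matched promoters of called members, and in 2.68% of all promoters of genes tested. The list was made of ATF4 response genes, so its share is no test of these data. Among all genes called higher the share was 2.88%, and among those called lower 2.42%, both near that of all genes tested. Capitals mark the matches; each stretch is written 5′ to 3′ along the gene's strand, and all 3 genes lie on the minus strand.
Asns, chr6:7693199-7693258: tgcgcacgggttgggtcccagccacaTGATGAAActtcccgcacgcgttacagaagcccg
Pycr1, chr11:120643818-120643877: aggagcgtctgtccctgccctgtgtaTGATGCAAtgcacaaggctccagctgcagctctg
Slc7a11, chr3:50443627-50443705: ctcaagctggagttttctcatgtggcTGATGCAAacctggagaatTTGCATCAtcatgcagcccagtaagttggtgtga
In the Slc7a11 stretch the second match is on the other strand, where it reads TGATGCAA. The NBRE of Nr4a1 was searched as AAAGGTCA on both strands. It was present in 1.68% of promoters of genes called higher, 0.745% of those called lower and 1.2% of those of all genes tested, and in 0 of the 24 ATF4 list promoters. A match is a match of letters in this window only.

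**Figure D2:**
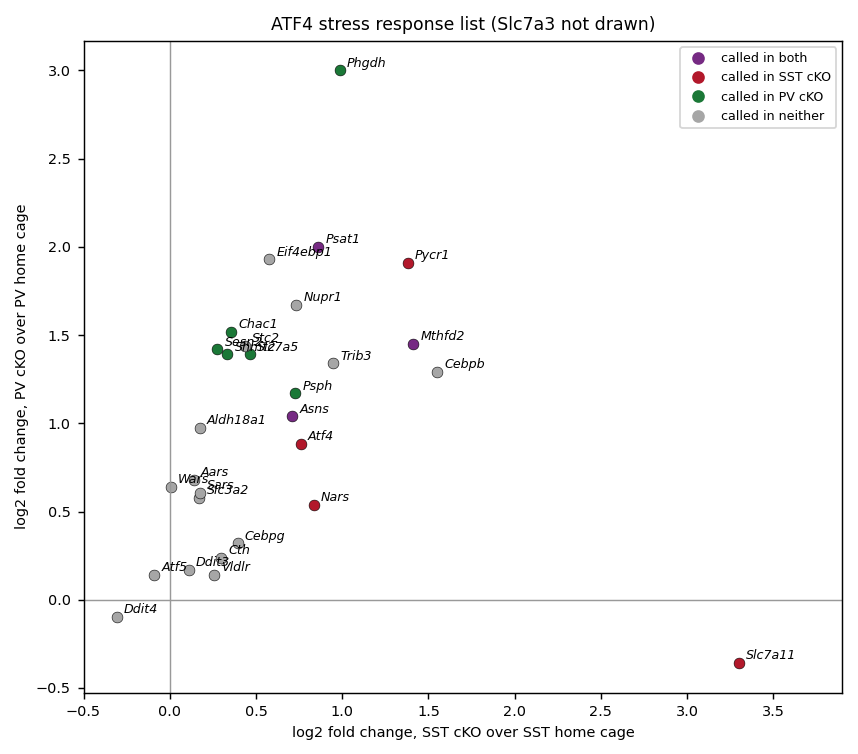
Log2 fold change of ATF4 list members in SST cKO over SST home cage libraries (x axis) and in PV cKO over PV home cage libraries (y axis). Colours show which comparison called the gene at an adjusted p of 0.05. Slc7a3 is not drawn because it had 0 counts in all PV home cage libraries. Most members lie above 0 on both axes, and Slc7a11 lies at 3.30 in SST cells and -0.36 in PV cells.

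The same list was higher in a second Cre line. PV cKO libraries (PV:Cre/Nr4a1-f/f/Ribotag, home cage, n = 3) and PV home cage libraries (n = 3) were both of batch 3 and share no library with the SST comparison. There, 21 of 15150 genes passed (0.139%), and without PV home cage replicate 1 the calls numbered 1224. The PV home cage libraries were uneven, with 20353741, 15301328 and 10096035 counts and 1.39%, 2.46% and 4.62% of them in nuclear rRNA genes. PV cKO libraries held 27282912, 23550374 and 21148427 counts, with 0.774%, 1.2% and 1% in those genes. Of the 30 ATF4 list members, 10 were higher in PV cKO libraries and 0 lower, beside 0.099% of all genes higher and 0.0396% lower, with a median log2 fold change of 1.10. The list was chosen with earlier results of these data known, so this count is no independent test. Of 14579 genes tested in both lines, 1246 were called in SST and 20 in PV libraries, and 8 were called in both (0.642% of the SST calls and 40% of the PV calls). Mthfd2, Slc7a3, Psat1, Asns and Mars were higher in both. Tmsb4x, a protein that binds actin monomers, and the histone gene Hist3h2ba were lower in both. Ndufs5, a subunit of respiratory complex I, was lower in SST cKO libraries (log2 fold change -0.75) and higher in PV cKO libraries (1.56).

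Mthfd2 differed by nearly the same amount in both lines, 1.41 in SST and 1.45 in PV libraries, and the test of the difference found none (difference -0.01, adjusted p = 1). Asns had log2 fold changes of 0.71 and 1.04 (difference -0.29, adjusted p = 0.554), and Psat1 0.86 and 2.00 (difference -1.09, adjusted p = 0.0672). Phgdh, called in PV libraries alone, had 0.98 and 3.00 (difference -1.96, adjusted p = 0.0931). Slc7a3 had 0 counts in each PV home cage library and 11.9 CPM over the pooled PV cKO libraries, which was at least 182-fold higher when 3 counts over the group are taken as the floor. In the test of the difference over all 16452 genes of the joint fit, 57 passed (0.346%), 30 with a higher value in SST (0.182%) and 27 with a lower one (0.164%). Without SST cKO replicate 2 they numbered 17, and without PV home cage replicate 1 they numbered 133. The SST side of each such difference still holds batch and genotype together.

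Genes of the cytosolic ribosome were lower in cKO libraries almost without exception. Of 78 ribosomal protein genes tested, 68 were lower and 0 higher (87.2% called, beside 4.59% of all genes lower), and all 78 had a negative log2 fold change. The median was -0.80, and the values ran from -1.44 for Rpl29 to -0.10 for Rpl5. Rpl29 had 17.1, 18.9 and 21.9 CPM in cKO libraries, against 51.3, 55.3 and 50.5 CPM in home cage libraries (adjusted p = 0.000329). Rps20 had 29.7, 28.8 and 29.7 CPM in cKO libraries, against 72.7, 71.3 and 63.7 CPM in home cage libraries (log2 fold change -1.24, adjusted p = 0.000387). In 77 of the 78 genes the groups did not overlap, as in 29.8% of all genes tested. Rpl22, the ribosomal protein that carries the tag, had a log2 fold change of -0.68 (adjusted p = 0.0899). With the offset 40 of the 78 stayed lower, with a median of -0.59. Processed copies of many of these genes exist in the genome, and how reads were divided among them is uncertain.

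Nuclear-encoded subunits of oxidative phosphorylation were lower as well, 45 of 76 lower and 0 higher (59.2% called, beside 4.59% of all genes lower), with a median of -0.49. Cox8a, of cytochrome oxidase, had 316, 295 and 309 CPM in cKO libraries, against 759, 688 and 652 CPM in home cage libraries (log2 fold change -1.19 ± 0.08 SE, adjusted p = 9.43e-05). Atp5e, of ATP synthase, had a log2 fold change of -1.38 (adjusted p = 0.00122) and Ndufs6, of complex I, -0.86 (adjusted p = 0.000641). With the offset 23 of the 76 were lower and the median was -0.15. All 9 mitochondrially encoded genes tested were lower, with a median of -1.93, the rRNA genes mt-Rnr1 and mt-Rnr2 among them. Genes of the mitochondrial chromosome took 0.0683%, 0.0978% and 0.0951% of the counts in cKO libraries, against 0.276%, 0.339% and 0.314% in home cage libraries. Whether these reads came from tagged cytosolic ribosomes was not tested. The complex I subunit mt-Nd4 had 31.2, 49.0 and 49.5 CPM in cKO libraries, against 199, 226 and 218 CPM in home cage libraries (log2 fold change -2.31 ± 0.21 SE, adjusted p = 0.000377). In the PV comparison the same 9 genes had a median of 0.42 and none was called, while ribosomal protein and nuclear-encoded subunit genes had medians of -0.56 and -0.56, with 0 and 0 called lower and 1 subunit gene, Ndufs5, called higher. Of 20 genes of glycolysis, 4 were lower (Gapdh, Eno2, Gpi1 and Eno1) and 0 higher, and the count without 1 library ran from 1 to 5. That is 20.0% of the list in the SST comparison, and with the offset 2 were lower.

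The fold change moved with the length and the base composition of genes. By exon length, the median log2 fold change was -0.87 for genes under 500 bases and 0.10 for those over 8000 bases. By GC content of the exons, it was 0.37 under 40% and -0.29 over 60%. Short genes showed the same course in the PV comparison, with -0.68 under 500 bases and 0.13 over 8000 bases, but GC content did not, with 0.07 under 40% and -0.03 over 60%. Genes under 1000 bases took 1.75% to 1.86% of the counts in SST cKO libraries and 2.47% to 2.76% in SST home cage libraries. They took 2.51%, 3.3% and 3.43% in PV cKO libraries and 3.52%, 4.96% and 7.99% in PV home cage libraries. The part of uneven PV libraries in the PV medians was not tested. Ribosomal protein genes and nuclear-encoded subunits of oxidative phosphorylation are short, with median exon lengths of 1776 and 1696 bases beside 4255 for all genes tested. The part of length and GC content in each gene's difference was tested only through the offset given beside the results.

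**Figure D3:**
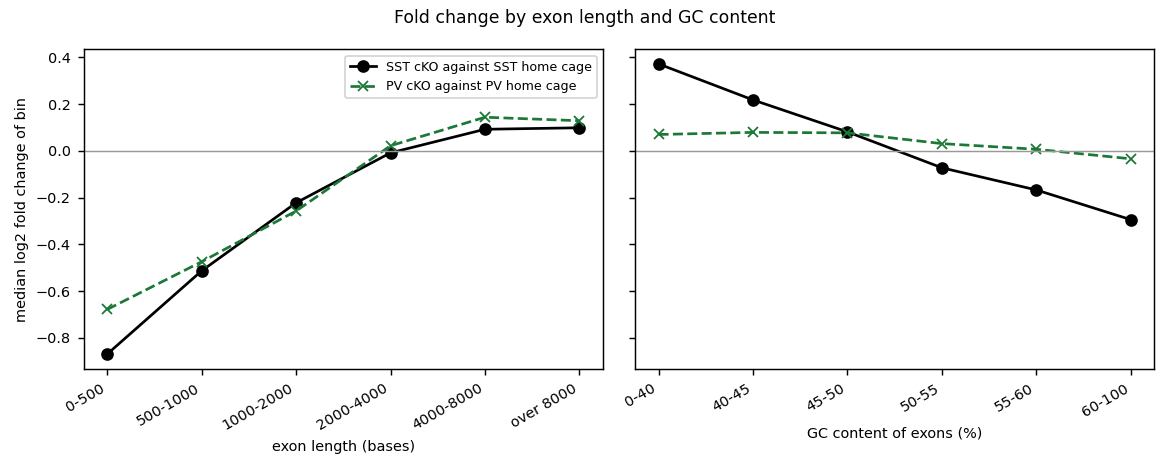
Median log2 fold change of genes binned by exon length (left) and by GC content of the exons (right), for SST cKO over SST home cage (black) and PV cKO over PV home cage (green). Both lines rise with length from below -0.6 to about 0.1. The SST line falls with GC content from 0.37 to -0.29, and the PV line stays within 0.1 of 0.

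Neuropeptide genes gave a similar picture to Sst in part. Of 17 genes on the list, 4 were lower and 0 higher (Sst, Cck, Penk and Calb2), with a median of -0.36, and without any 1 library the lower members numbered 2 to 5. That is 23.5% of the list, beside 4.59% of all genes lower. Cck, the cholecystokinin gene, had 37.0, 38.4 and 36.8 CPM in cKO libraries, against 79.4, 85.4 and 82.1 CPM in home cage libraries (log2 fold change -1.14 ± 0.14 SE, adjusted p = 0.00157). Penk, the enkephalin precursor, averaged 206 CPM in cKO libraries and 340 CPM in home cage libraries (-0.72, adjusted p = 0.0100), and the calcium-binding protein Calb2, on the same list, 128 CPM in cKO libraries and 202 CPM in home cage libraries (-0.67, adjusted p = 0.0159). Cort and Tac1 had log2 fold changes of -0.04 and 0.06, and Crh, the corticotropin-releasing hormone gene, 0.51 (adjusted p = 0.104). With the offset Cck stayed lower (-0.68, adjusted p = 0.0328), and Cort (0.71, adjusted p = 0.0333) and Crh (0.84, adjusted p = 0.0345) were higher. Sst, Penk (-0.43, adjusted p = 0.113) and Calb2 (-0.39, adjusted p = 0.187) no longer passed under it, and the list's median was -0.14.

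Among 13 genes of peptide storage and processing, 5 were lower and 1 was higher (46.2% called, beside 8.1% of all genes). With the offset 3 were lower and 0 higher. Pcsk1n, an inhibitor of a prohormone convertase, had 370, 340 and 333 CPM in cKO libraries, against 882, 705 and 681 CPM in home cage libraries (log2 fold change -1.12 ± 0.10 SE, adjusted p = 0.000387). The granin Chga (-0.54), the amidating enzyme Pam (-0.39), the convertase Pcsk2 (-0.37) and the secreted peptide precursor Vgf (-0.33) were lower, and Cadps, which primes dense-core vesicles, was higher (0.41, adjusted p = 0.0206). Without any 1 library the lower members numbered 2 or 3. The call of Vgf was lost when any 1 library was left out, and under the offset its log2 fold change was -0.03 (adjusted p = 0.952). The granin Scg2 (0.04) and the processing enzyme Cpe (-0.06) did not pass.

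A few receptor and channel genes rose, beside 3.51% of all genes higher and 4.59% lower. Of 13 GABA-A receptor subunits, 2 were higher and 0 lower, among them Gabra4 (log2 fold change 0.55, adjusted p = 0.0151); the list's median was 0.25, and -0.14 with 0 called under the offset. Of 10 AMPA and NMDA receptor subunits, the AMPA subunits Gria2 (0.52, adjusted p = 0.0120) and Gria3 (0.68, adjusted p = 0.00752) were higher, and with the offset 0 of the 10 were. Gria3 had 177, 230 and 226 CPM in cKO libraries, against 115, 141 and 138 CPM in home cage libraries, without overlap. Of 9 sodium channel genes, Scn2b, an auxiliary subunit, and Nalcn, the leak channel, were higher (0.69 and 0.73, adjusted p = 0.0039 and 0.0326). The call of Scn2b held under the offset (0.65), and that of Nalcn did not (0.51, adjusted p = 0.185). Kcna1, a Kv1 potassium channel, was lower (-0.69, adjusted p = 0.00722) and Kcna6, another, higher (0.33, adjusted p = 0.0442), out of 30 potassium channel genes. That is 6.67% of this list, below the 8.1% of all genes called. The call of Kcna6 was lost when any 1 library was left out, and under the offset. The cannabinoid receptor gene Cnr1 had 115, 138 and 142 CPM in cKO libraries, against 72.3, 82.6 and 80.6 CPM in home cage libraries (0.74 ± 0.11 SE, adjusted p = 0.00396).

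Few activity-induced genes passed the test. Of 29 rapid activity-induced genes tested, 1 passed, below the 8.1% of all genes: Jun had 60.5, 39.8 and 38.0 CPM in cKO libraries, against 85.3, 76.3 and 86.2 CPM in home cage libraries (log2 fold change -0.84, adjusted p = 0.0138). Fos (0.39), Egr1 (-0.05), Arc (-0.59) and Npas4 (-1.05) did not pass. Of 33 delayed activity-regulated genes, Kcna1 and Vgf, described above, were lower and 0 were higher (6.06% called, below the 8.1% of all genes). Of the 28 transcription factors of interneuron identity, Dlx2 (-0.57, adjusted p = 0.00383) and Bcl11b (-0.60, adjusted p = 0.0181) were lower and 0 were higher. That is 7.14% called, also below the share of all genes. Of 14 regulators of mitochondrial biogenesis, 11 genes of GABA synthesis and transport and 24 vascular and mural cell markers, 0 passed in each.

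Clock, cholesterol and heat shock genes went both ways. Among 19 circadian clock genes, Clock (log2 fold change 0.84, adjusted p = 0.0332) and Nr1d2 (0.60, adjusted p = 0.0196) were higher, and the output factor Dbp was lower (-0.96, adjusted p = 0.0238). That is 15.8% of this list, beside 8.1% of all genes called, and with the length and GC offset 0 of the 19 were called. Time of day at collection is not given in the labels. Of 22 genes of cholesterol synthesis, 3 were lower and 2 higher; Srebf2, the master regulator of the pathway, had 125, 126 and 134 CPM in cKO libraries, against 204, 175 and 203 CPM in home cage libraries (-0.60, adjusted p = 0.00367). Of 21 heat shock genes, Cryab (-1.17), Hspe1 (-0.46) and Hsp90aa1 (-0.41) were lower and Dnaja1 (0.53) was higher. The metal-binding Mt1 was lower (-1.02, adjusted p = 0.00151) and Tsc22d3, also known as Gilz, higher (0.37, adjusted p = 0.0191) among 17 genes that answer glucocorticoids. The shares called were 22.7% for cholesterol, 19.0% for heat shock and 11.8% for glucocorticoid genes. With the offset 0 members of these lists were higher, and 2, 2 and 1 were lower. Cryab, Hspe1, Dnaja1 and Tsc22d3 no longer passed under it.

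**Figure D4:**
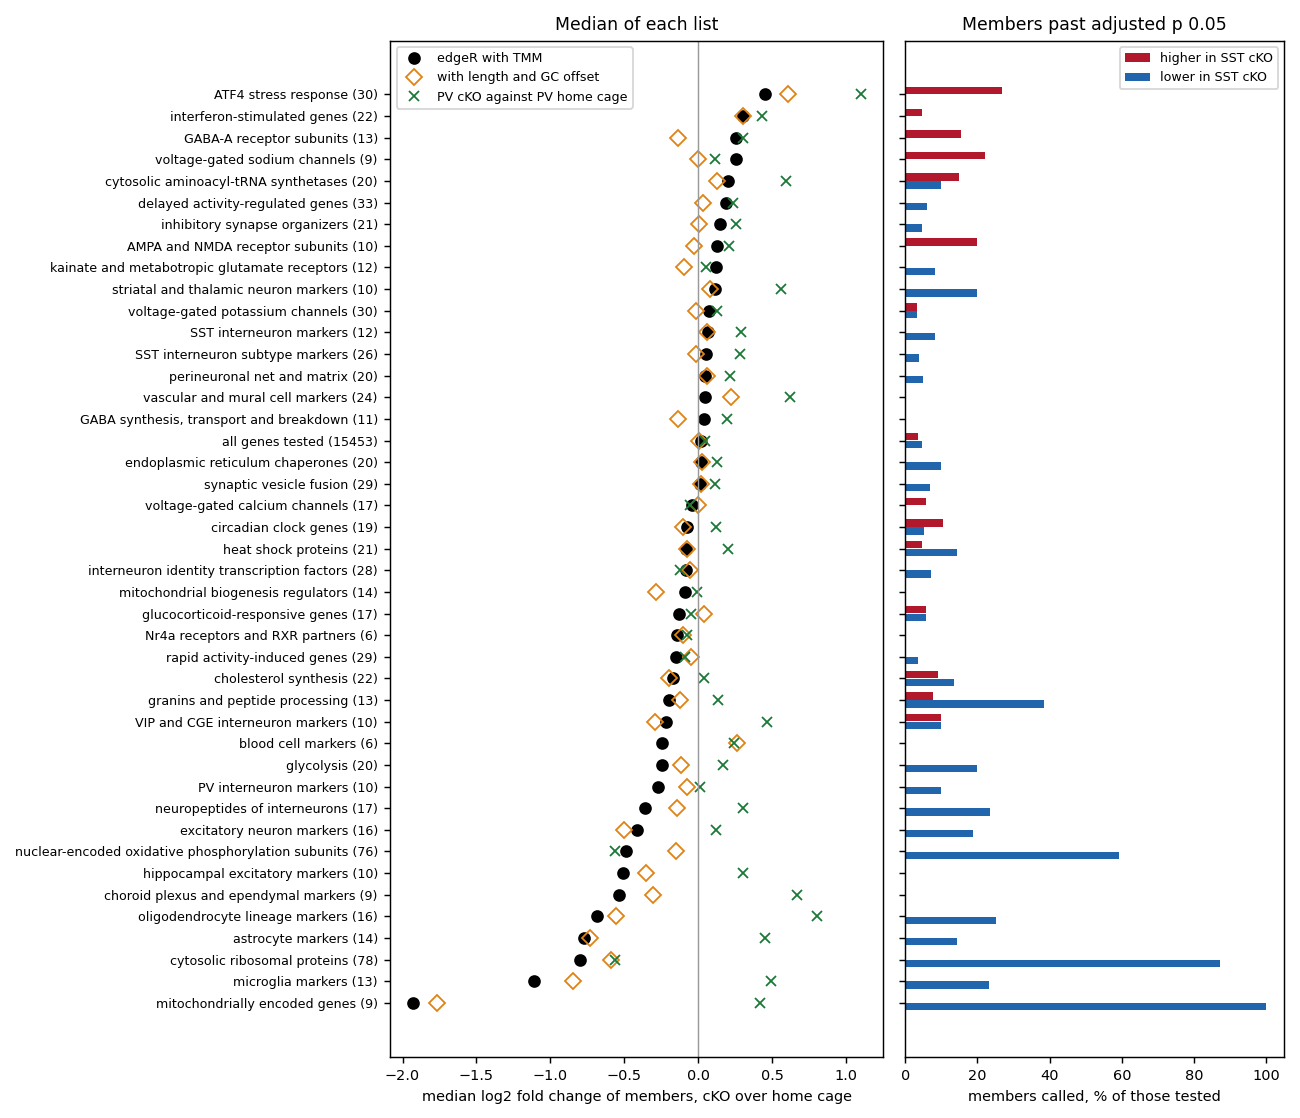
Left, median log2 fold change of the tested members of each list (number in brackets) in SST cKO over SST home cage libraries, with the length and GC offset, and in PV cKO over PV home cage libraries. Right, percent of tested members called higher or lower in SST cKO libraries. The ATF4 list has the highest SST median (0.45), and mitochondrially encoded genes (-1.93), microglia markers (-1.11) and ribosomal proteins (-0.80) have the lowest.

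Summed levels of excitatory neuron, oligodendrocyte, astrocyte and microglia markers were lower in the cKO libraries, while those of vascular and mural cells, given above, and of hippocampal excitatory neurons overlapped (298 to 347 CPM in cKO libraries and 341 to 419 CPM in home cage libraries, 0 of 10 called). Summed over 16 excitatory neuron markers, the level was 519 to 533 CPM in cKO libraries and 857 to 1036 CPM in home cage libraries, and 3 markers were lower and 0 higher. Camk2a, the calcium kinase of excitatory neurons, had 212, 193 and 196 CPM in cKO libraries, against 432, 524 and 543 CPM in home cage libraries (log2 fold change -1.32 ± 0.11 SE, adjusted p = 0.000329). Nrgn, neurogranin, fell by 1.47 on the log2 scale (log2 fold change -1.47, adjusted p = 0.000371), and Slc17a7, the vesicular glutamate transporter, by 0.79 (-0.79, adjusted p = 0.0180). The 3 genes kept their direction under each setting. The calls of Camk2a and Nrgn each held under 17 of 18 other settings, and that of Slc17a7 under 13.

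Glial markers lay in the same direction. The sum of 16 oligodendrocyte lineage markers was 740 to 839 CPM in cKO libraries and 1093 to 1567 CPM in home cage libraries, and 4 were called lower, among them the myelin genes Mbp (-0.89), Mobp (-0.79) and Cnp (-0.62). Without 1 library the count ran from 1 to 4, with 1 without cKO replicate 2, without cKO replicate 3 or without home cage replicate 2, and Mobp was called in 8 of 18 other settings. The sum of 14 astrocyte markers was 395 to 433 CPM in cKO libraries and 549 to 742 CPM in home cage libraries, and Agt and Slc1a2, the glutamate transporter, were lower. The sum of 13 microglia markers was 50.1 to 60.9 CPM in cKO libraries and 85.7 to 116 CPM in home cage libraries, and C1qa (-1.76), Ctss (-1.28) and Tyrobp (-1.99) were lower, in 9, 8 and 8 of 18 other settings. The cKO and home cage ranges did not overlap for any of these 4 sums, and in no list was a marker at 0 in every library. The shares called lower were 18.8%, 25.0%, 14.3% and 23.1% for the excitatory, oligodendrocyte, astrocyte and microglia lists, beside 4.59% of all genes. With the length and GC offset 3, 3, 2 and 0 members were lower. In CFC libraries the excitatory sum was 785 to 957 CPM and the oligodendrocyte sum 883 to 1147 CPM, both overlapping home cage libraries. The astrocyte sum there was 428 to 544 CPM, overlapping cKO libraries, and the microglia sum 66.9 to 76.5 CPM. The median log2 fold changes of CFC over home cage libraries were -0.202, -0.235, -0.593 and -0.622 for the excitatory, oligodendrocyte, astrocyte and microglia lists. In PV cKO over PV home cage libraries the medians of the excitatory, oligodendrocyte, astrocyte and microglia lists were 0.12, 0.80, 0.45 and 0.49, with 0 called in each. The part of RNA from other cells in the lower calls was not tested.

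Genes around Nr4a1 on chromosome 15 were compared because a floxed allele can bring flanking DNA of the strain in which it was made. Within 1 Mb of Nr4a1, 3 of 31 genes passed (9.68%), beside 8.1% of all genes. They were Mettl7a1 (log2 fold change -1.28, adjusted p = 0.0233), Igfbp6 (-0.95, adjusted p = 0.0347) and the translation factor Eif4b (-0.38, adjusted p = 0.0303), all lower. Between 1 and 3 Mb, 15 of 62 genes passed (24.2%), 3 higher and 12 lower, and 5 of them differed by more than 2-fold. Those 5 were Tuba1c, Smarcd1, Ddx23, Pfdn5 (-1.01, adjusted p = 0.000641) and Atp5g2 (-1.21, adjusted p = 0.00157). Between 3 and 5 Mb 0 of 19 passed, between 5 and 10 Mb 1 of 20, and beyond 10 Mb 7.3%.

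In the PV comparison 0 genes were called in any of these distance bins, beside 0.139% of all genes. With so small a share, 0 calls near Nr4a1 do not set the lines apart. Smarcd1 had a log2 fold change of -1.05 in PV cKO over PV home cage libraries (adjusted p = 0.159) and Ddx23 one of -1.97 (adjusted p = 0.183), beside -2.40 and -2.07 in SST libraries. Tuba1c had -0.15 there (adjusted p = 0.883). The test of the difference between the lines passed for Tuba1c (5.87, adjusted p = 0.000669) and not for Smarcd1 (-1.31, adjusted p = 0.146) or Ddx23 (-0.05, adjusted p = 0.996). The strain of origin of the flanking DNA is not given in the labels, and its part was not tested.

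**Figure D5:**
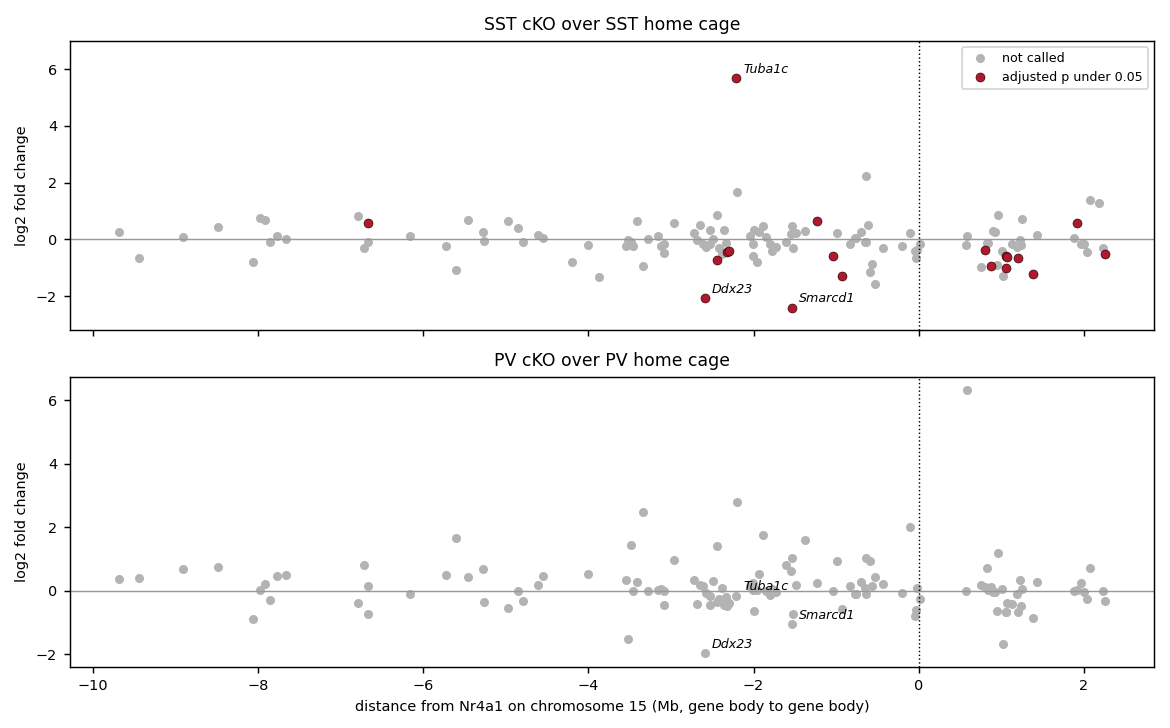
Log2 fold change of genes on chromosome 15 against their distance from Nr4a1 in Mb, for SST cKO over SST home cage (top) and PV cKO over PV home cage (bottom). Red points passed an adjusted p of 0.05. In the SST panel red points gather within 3 Mb on both sides, with Tuba1c at 5.67, Ddx23 at -2.07 and Smarcd1 at -2.40, and the PV panel has 0 red points. The PV comparison called 0.139% of all genes.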

How the data were processed

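Counts per gene were deposited by the authors as 1 table per batch, and batches 3, 4 and 5 list the same 53465 Ensembl genes. Per the submitters' processing notes, cutadapt 1.18, STAR 2.5.2a, HTSeq 0.11.0 and DESeq2 were used, and the builds mm10 and GRCm39 are named without a role. No source used here says how strand was counted. Gene positions, exon lengths and GC content came from GENCODE release 21 (GRCm38), which holds 53360 of these genes. No column of values was left unused (0 columns).

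The main test was edgeR 4.0.16 (R 4.3.3), a two-sided quasi-likelihood F test on the deposited counts with TMM scaling, filterByExpr, robust dispersion and Benjamini-Hochberg adjustment at 0.05. The cKO, home cage and CFC libraries of the SST line shared the estimate of the spread. The SE of a log2 fold change is its size over the root of F. CPM values are after TMM scaling, apart from the pooled value of Slc7a3 in PV cKO libraries, which used library totals. The difference between lines was a contrast over all libraries of batches 3 to 5. DESeq2 1.42.0, limma 3.58.1 (voom) and other settings were alternatives; the loess offset for length and GC content (span 0.5) and a term for Y-linked counts were chosen after seeing the data. Each library counted once. No pair of replicates within the SST cKO or the SST home cage group agreed within sampling noise. That does not show whether the libraries are separate animals, since separate preparations of 1 sample can also differ by more. The fits were tested on simulated counts with known changes.

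Named genes were Nr4a1, Sst and Pvalb, the 15 largest called changes in each direction among genes averaging at least 5 CPM whose groups did not overlap, up to 4 called members per list (up to 2 where none was called), and genes within 1 Mb of Nr4a1. The comparison, the lists and the tests were chosen with earlier results of these data known. Some genes that the rule names are not reported here.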

Additional observations from a re-analysis of the deposited data

Results flagged for a closer look

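For 15 of the named genes, the difference between cKO and home cage libraries itself differed between the SST and the PV line (edgeR quasi-likelihood test of SST minus PV, adjusted over 16452 genes). The SST side holds batch and genotype together, and the PV side was made within batch 3. The difference was positive, that is, higher in SST, for Tuba1c (5.87, adjusted p = 0.000669), Slc7a11 (3.71, adjusted p = 0.017) and Wdfy1 (2.66, adjusted p = 0.00667).

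It was negative for genes that were lower in SST cKO libraries. Cdr1 (-3.3, adjusted p = 0.000458) and Map1a (-1.43, adjusted p = 0.008) had negative PV values in the joint fit too, -0.406 and -0.201. PV values were above 0 for the others, whose differences follow: Camk2a (-1.38, adjusted p = 0.000669), the excitatory transporter gene Slc17a7 (-1.25, adjusted p = 0.0359), the myelin gene Cnp (-1.64, adjusted p = 0.011), the mitochondrial genes mt-Co1 (-2.39, adjusted p = 0.0114) and mt-Cytb (-2.48, adjusted p = 0.0279), Ndufs5 (-2.26, adjusted p = 0.00667), Vgf (-1.02, adjusted p = 0.0291), the glycolytic enzyme Eno1 (-0.875, adjusted p = 0.0279) and Srebf2 (-0.931, adjusted p = 0.0317). Slc7a3 was higher in cKO libraries of both lines, and its fitted difference of -9.89 (adjusted p = 0.00591) rests on PV home cage libraries at 0 counts, so that value is no measure of size.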

How the results depend on the processing

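DESeq2 called 2126 genes in the SST comparison (978 higher, 1148 lower), and scaling by library totals called 816 higher. The length and GC offset left 531 (189 higher, 342 lower), 401 of them among the 1252. A test against a 2-fold difference left 12 (2 higher, 10 lower). Leaving out 1 library gave 412 to 1292 calls, 113 to 634 higher and 299 to 687 lower; without home cage replicate 2 the higher calls numbered 349. The cause of these shifts was not tested. The replicate numbers did not pair the libraries (correlations of deviations of -0.395, -0.389 and 0.0452), and with the replicate block 859 genes passed. In the PV comparison DESeq2 called 669 (267 higher, 402 lower), the replicate block 27, and leaving out 1 library gave 7 to 1224 (7 to 588 higher, 0 to 636 lower), with 7 without PV cKO replicate 1 and 9 without PV home cage replicate 2. For the difference between lines DESeq2 called 402 (191 higher, 211 lower), the offset 19 higher, and leaving out 1 of 12 libraries gave 17 to 133 (5 to 58 higher, 12 to 75 lower). Of 118 named genes with a call, 65 kept it under the offset and 52 lost it. The test against a 2-fold difference ended 107 of these calls, leaving out cKO replicate 3 ended 64, cKO replicate 2 60 and any other single library 17 to 42. Lgals1 turned to 0.10 under the offset, and without home cage replicate 1 Pvalb turned to 0.0488 and Nr4a1 to 0.00612; leaving out 1 library gave -1.26 to 0.0488 for Pvalb and -0.467 to 0.00612 for Nr4a1, none past the threshold. With 3 libraries per group a gene without a call may still differ.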

Other observations

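Of 1230 spans of 2 Mb, 3 nuclear spans held 3 such genes each: chromosome 15 from 98 to 100 Mb (Ddx23, Smarcd1 and Tuba1c), chromosome 2 from 120 to 122 Mb (Map1a, Tmem87a and Pla2g4e) and chromosome 17 from 32 to 34 Mb (Zfp952, Rps28 and Zfp763). Tmem87a and Pla2g4e had log2 fold changes of -2.34 and -2.28 in PV cKO over PV home cage libraries as well, where neither passed (adjusted p = 0.141 and 0.174), and Map1a had -0.16. These places were picked after the values were seen and have no test.

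The X chromosome had 64 of 530 genes called (12.1%), 46 of them higher, beside 8.1% of all genes. Among interferon-stimulated genes, Ifit2 alone of 22 was called, with 97.7, 98.8 and 100.0 CPM in cKO libraries against 63.4, 51.5 and 68.8 CPM in home cage libraries (log2 fold change 0.69, adjusted p = 0.00876). Of 10 striatal and thalamic neuron markers 2 were lower, among them Ppp1r1b (-0.96, adjusted p = 0.0196). That is 20.0% of the list, beside 4.59% of all genes lower, and with the length and GC offset 0 were lower.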
